A study of Homo sapiens with 6 samples.

Results

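LFNG, which encodes the lunatic fringe glycosyltransferase, was examined together with 9 other genes of the Notch pathway in the breast cancer line MDA-MB-231, which is human in origin and lacks hormone receptors and HER2 amplification. The 10 genes were the fringes LFNG, MFNG and RFNG, the receptors NOTCH1, NOTCH2 and NOTCH3, the ligands JAG1 and JAG2, and the target genes HES1 and HEY1. The platform's annotation assigns 27 of the 54675 probe sets on the array to these symbols alone, where the oligonucleotides of a probe set are read as 1 measurement of a transcript. Of these 27, 20 passed the filter on low signal and 7 did not, and each of the 10 genes had at least 1 that passed. The set was drawn up after the comparison between the groups had been seen, around the higher LFNG signal, so the differences of these 10 genes are given as a description, with values and errors and no p. LFNG is the member whose difference led to the choice.

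The series holds 3 arrays of cells stably expressing an shRNA that targets MYOSIN10 (current symbol MYO10) and 3 arrays of cells stably expressing a scramble shRNA. All 6 samples were grown alike in L-15 medium with serum, and each is total RNA on 1 single-colour array labelled from the 3' end. Samples carry the numbers 1 to 3 within a group, and the labels give neither the hairpin sequence nor whether the lines are clones or pools. Nor do they say whether the samples are separate cultures, so the p-values cover the spread between these samples alone, and that spread may be technical. The comparison asks which transcripts differ when MYO10, an unconventional myosin of filopodia, is lowered.

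Notch receptors are single-pass membrane proteins that are activated by Jagged or Delta-like ligands on a neighbouring cell. Ligand binding exposes the receptor to ADAM proteases and then to gamma-secretase, and the released intracellular domain joins the DNA-binding protein RBPJ and a Mastermind coactivator to switch on target genes, chiefly the HES and HEY repressors. Fringe enzymes work in the Golgi, where they add N-acetylglucosamine to O-linked fucose on the epidermal growth factor (EGF)-like repeats of the receptor and so change how it responds to each ligand family. In the mammary gland the pathway takes part in cell-fate choices of epithelial progenitors.

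All levels below are log2 (MAS5 signal + 16), and all differences are log2 fold changes of MYOSIN10 shRNA over scramble shRNA, with the standard error of the limma fit over 33311 kept probe sets. The brightness of a probe set depends on its oligonucleotides, so levels were compared between arrays for 1 probe set at a time and not between genes. The arrays correlated pairwise at 0.973 to 0.982, and the number of arrays limits the precision. MYO10 was 10.70, 11.39 and 10.64 on MYOSIN10 shRNA arrays 1, 2 and 3, against 11.57, 11.96 and 11.86 on scramble arrays 1, 2 and 3, a difference of -0.88 ± 0.17 (SE; limma, Benjamini-Hochberg adjusted p = 0.0318). The 6 markers of this mesenchymal-like line (VIM, CD44, EGFR, MSN, CAV1 and AXL) lay above the 95th percentile of every array. Among 6 genes taken as low in it, PGR, CDH1 and FOXA1 did not pass the filter, whereas ESR1, EPCAM and GATA3 did. EPCAM, an epithelial adhesion molecule, was 8.90, 8.74 and 8.65 with MYOSIN10 shRNA, against 8.09, 8.55 and 7.34 with scramble shRNA (limma adjusted p = 0.177), and the part of epithelial markers in the results was not tested. Of the leukocyte and endothelial markers, PTPRC and CDH5 did not pass, and CD3E and PECAM1 passed at low signal. In bulk RNA, fewer cells that express a gene and less of its RNA per cell cannot be told apart.

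LFNG was higher in every MYOSIN10 shRNA sample than in any scramble sample. Its brighter probe set, 228762_at, was 9.60, 9.40 and 9.70 on MYOSIN10 shRNA arrays 1, 2 and 3, against 8.51, 8.16 and 8.42 on scramble arrays 1, 2 and 3. The groups did not overlap, and the gap between them was wider than the spread within either group. The means were 9.56 ± 0.15 with MYOSIN10 shRNA and 8.37 ± 0.18 with scramble shRNA (SD, n = 3 each), a log2 fold change of 1.20 ± 0.14 (SE), or 2.30-fold. MYOSIN10 shRNA array 2, which kept the most MYO10 signal of its group, had the lowest LFNG signal of its group. The second LFNG probe set, 215270_at, was dim, near the 35.4th percentile of the arrays, and reached the filter's level on 2 MYOSIN10 shRNA arrays and 1 scramble array. It was 5.25, 5.94 and 6.34 with MYOSIN10 shRNA, against 5.81, 4.52 and 4.72 with scramble shRNA, with a difference of 0.83 ± 0.48 (SE). Its groups overlapped through MYOSIN10 shRNA array 1 and scramble array 1, so the higher LFNG signal rests on 1 probe set.

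**Figure D1:**
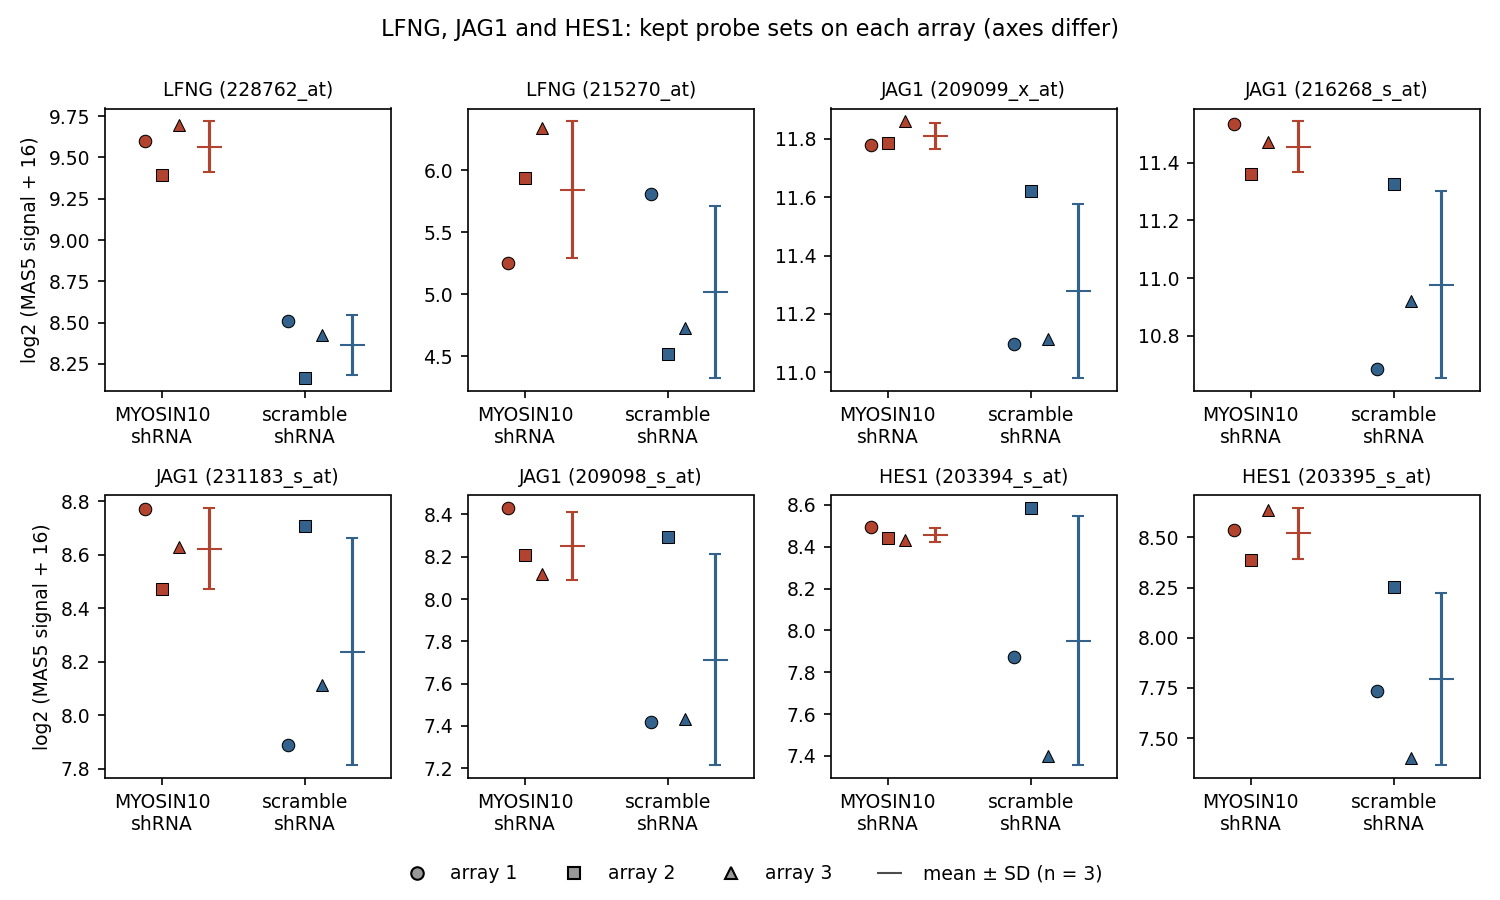
Level of each kept LFNG, JAG1 and HES1 probe set on each array, as log2 (MAS5 signal + 16) on the vertical axes, which differ between panels and do not start at 0. Symbols mark arrays 1, 2 and 3 of MYOSIN10 shRNA (red, left) and scramble shRNA (blue, right), and bars give the mean ± SD (n = 3). LFNG 228762_at separates the groups, while scramble array 2 lies near the MYOSIN10 shRNA arrays in all JAG1 and HES1 panels.

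The groups overlapped for both other fringes. MFNG, manic fringe, was 5.88, 6.23 and 6.0 with MYOSIN10 shRNA, against 6.48, 5.75 and 6.19 with scramble shRNA, and the arrays of both groups were interleaved (-0.097 ± 0.31, SE, and 0.074 without scramble array 1). The other MFNG probe sets, 204152_s_at and 213783_at, were below the filter, at -0.37 and 0.20 in a fit without it. RFNG, radical fringe, has 1 probe set, which was 7.72, 7.69 and 7.54 with MYOSIN10 shRNA, against 8.08, 7.47 and 8.10 with scramble shRNA (-0.23 ± 0.19, SE). Scramble array 2 was the lowest RFNG value of all 6, and the other scramble arrays were above every MYOSIN10 shRNA array, with a difference of -0.44 once that lowest array was left out. Leaving out either of the others gave -0.13 (scramble array 1) or -0.12 (scramble array 3).

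The receptors NOTCH1 and NOTCH2 differed by less than the spread between samples. NOTCH1 (218902_at) was 9.13, 8.54 and 9.23 with MYOSIN10 shRNA, against 8.87, 9.25 and 9.02 with scramble shRNA, a difference of -0.080 ± 0.18 (SE). The sign turned without MYOSIN10 shRNA array 2 (0.13) and without scramble array 2 (0.022). All 4 NOTCH2 probe sets passed the filter. The brightest, 202443_x_at, was 12.43, 12.30 and 12.41 with MYOSIN10 shRNA, against 12.45, 12.28 and 12.57 with scramble shRNA. Both groups covered nearly the same range, and the 95% interval of the difference ran from -0.24 to 0.14. The differences of the 4 NOTCH2 probe sets lay between -0.051 and 0.048, and each turned its sign when some single array was left out. Probe sets whose names end in _x_at can bind near-identical transcripts, and NOTCH2 has human-specific partial copies, the NOTCH2NL genes. NOTCH3 was read by 2 dim probe sets of opposite sign. The one that passed, 203238_s_at, was 4.87, 5.58 and 5.48 with MYOSIN10 shRNA, against 5.89, 5.89 and 5.72 with scramble shRNA (-0.52 ± 0.37, SE). It reached the filter's level on all 3 scramble arrays and on 0 MYOSIN10 shRNA arrays, so it passed the filter through the scramble arrays alone. The other, 203237_s_at, stood at 0.45 ± 0.33 (SE) without the filter, and no direction is given for NOTCH3.

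JAG1, the ligand with the most probe sets, was higher with MYOSIN10 shRNA on all 4 that passed the filter, by 0.39 to 0.54, and scramble array 2 was the highest of its group on each. The brightest, 209099_x_at, was 11.78, 11.79 and 11.86 on MYOSIN10 shRNA arrays 1, 2 and 3, against 11.10, 11.62 and 11.11 on scramble arrays 1, 2 and 3. The groups did not overlap, but scramble array 2 lay closer to the MYOSIN10 shRNA arrays than to its own group. The means were 11.81 ± 0.044 with MYOSIN10 shRNA and 11.28 ± 0.30 with scramble shRNA (SD, n = 3 each), a difference of 0.53 ± 0.13 (SE), or 1.44-fold. Next in brightness, 216268_s_at was 11.53, 11.36 and 11.47 with MYOSIN10 shRNA, against 10.68, 11.33 and 10.92 with scramble shRNA (0.48 ± 0.14, SE), again without overlap. On 231183_s_at and 209098_s_at, at 0.39 ± 0.20 and 0.54 ± 0.22 (SE), scramble array 2 fell inside the range of the MYOSIN10 shRNA arrays. The 2 JAG1 probe sets below the filter stood at 0.41 and 0.014 without it. These probe sets read the same samples and the same gene, so their shared direction is not a repeat of the comparison.

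JAG2, the other Jagged ligand, overlapped between the groups on both of its probe sets, which had opposite signs. The brighter, 32137_at, was 7.49, 7.17 and 7.24 with MYOSIN10 shRNA, against 7.80, 7.23 and 7.32 with scramble shRNA (-0.15 ± 0.20, SE, and 0.023 without scramble array 1). The other, 209784_s_at, stood at 0.11 ± 0.25 (SE), and at -0.027 without MYOSIN10 shRNA array 1.

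HES1, a repressor of the HES family and a direct target of the Notch complex, was higher with MYOSIN10 shRNA on both kept probe sets. On 203395_s_at it was 8.54, 8.39 and 8.63 on MYOSIN10 shRNA arrays 1, 2 and 3, against 7.73, 8.25 and 7.40 on scramble arrays 1, 2 and 3. The groups did not overlap, with means of 8.52 ± 0.12 with MYOSIN10 shRNA and 7.79 ± 0.43 with scramble shRNA (SD, n = 3 each), and the difference was 0.73 ± 0.20 (SE), or 1.65-fold. On 203394_s_at it was 8.50, 8.44 and 8.43 with MYOSIN10 shRNA, against 7.87, 8.58 and 7.40 with scramble shRNA (0.51 ± 0.24, SE). Here scramble array 2 was the highest of all 6, so the groups overlapped. The third HES1 probe set, 203393_at, was below the filter on every array and stood at -0.11 without the filter. HEY1, a related repressor, had small negative differences on both of its kept probe sets. Its brighter probe set, 44783_s_at, was 7.55, 7.10 and 7.36 with MYOSIN10 shRNA, against 7.48, 7.34 and 7.56 with scramble shRNA, which overlapped (-0.12 ± 0.19, SE). On 218839_at the lowest and the highest value of all 6 arrays, 5.19 and 7.04, were both MYOSIN10 shRNA samples (-0.32 ± 0.40, SE, and 0.16 without MYOSIN10 shRNA array 2).

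**Figure D2:**
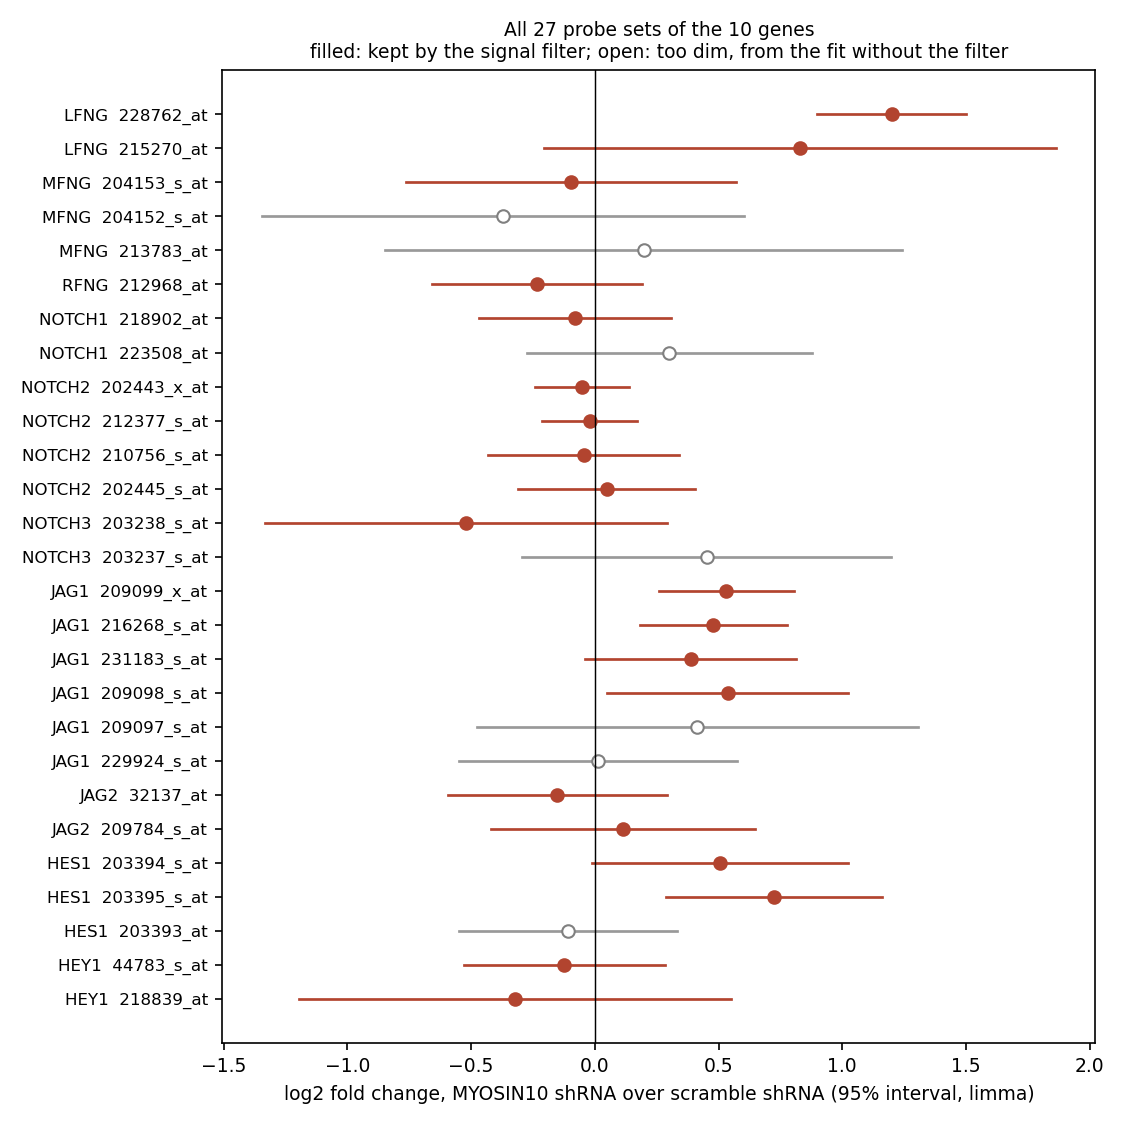
Log2 fold change (MYOSIN10 shRNA over scramble shRNA, horizontal axis) of all 27 probe sets of the 10 genes, with its 95% interval from limma; filled points passed the signal filter and open points did not. LFNG 228762_at lies at 1.20, the kept JAG1 and HES1 probe sets between 0.39 and 0.73, and the 4 NOTCH2 probe sets within 0.051 of 0.

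Counted over the 20 kept probe sets of the 10 genes, 10 differences were positive and 10 negative, with a median of 0.013, against a median of -0.0021 over all kept probe sets. The fit, with a Benjamini-Hochberg adjusted p under 0.05 over all kept probe sets, called 1 of the 20, LFNG 228762_at, where 1.06% of all kept probe sets were called. With eBayes run without a variance trend, 0 probe sets were called, LFNG included. Groups did not overlap for 5 of the 20, 4 with MYOSIN10 shRNA higher (1 of LFNG, 2 of JAG1 and 1 of HES1) and 1 with it lower (NOTCH3). Among all kept probe sets the groups did not overlap for 18.1%, with MYOSIN10 shRNA higher for 9.2% and lower for 8.94%. Since the genes were chosen from this comparison, nothing is read from these counts.

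Scramble array 2 stood below the other scramble arrays for LFNG and above them for JAG1 and HES1. Its difference from the mean of scramble arrays 1 and 3 was -0.30 for LFNG 228762_at. For the 4 kept JAG1 probe sets it was higher by 0.52, 0.52, 0.71 and 0.87, and for the 2 kept HES1 probe sets by 0.95 and 0.69. Over all kept probe sets this deviation had a median of -0.0052, with its 5th and 95th percentiles at -0.75 and 0.66. The MYOSIN10 shRNA mean differed from scramble array 2 alone by 1.40 for LFNG 228762_at, by -0.086 to 0.19 over the kept JAG1 probe sets, and by -0.13 and 0.27 for HES1. Without scramble array 2, LFNG 228762_at stood at 1.10 ± 0.13 (SE), JAG1 209099_x_at at 0.70 ± 0.081 (SE) and HES1 203395_s_at at 0.95 ± 0.17 (SE). JAG1 231183_s_at and 209098_s_at then stood at 0.62 and 0.83, and HES1 203394_s_at at 0.82. Leaving out scramble array 1 or 3 instead lowered the JAG1 and HES1 differences below those with all arrays. JAG1 231183_s_at and 209098_s_at stood at 0.21 and 0.39 without scramble array 1, and HES1 203394_s_at at 0.23 without scramble array 3. LFNG 228762_at rose, to 1.27 without scramble array 1 and to 1.23 without scramble array 3. The fit without scramble array 2 called 7 of the 20, which were LFNG 228762_at, all 4 kept JAG1 and both kept HES1 probe sets. In that fit the share over all kept probe sets was also higher, at 4.4%. Without both arrays numbered 2, an alternative added after the data were seen, the same 7 were called, and 4.98% of all kept probe sets. What sets scramble array 2 apart was not tested.

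**Figure D3:**
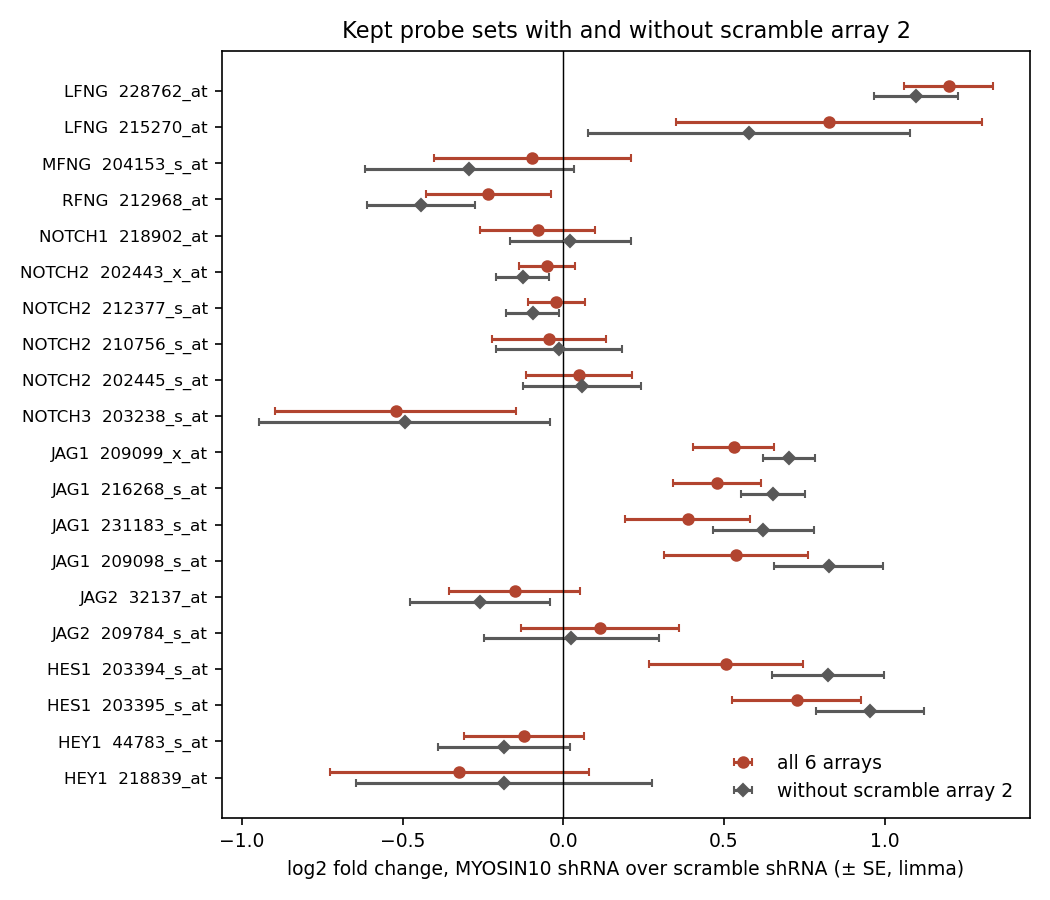
Log2 fold change (MYOSIN10 shRNA over scramble shRNA, ± SE from limma) of the 20 kept probe sets with all 6 arrays (red circles) and without scramble array 2 (grey diamonds). JAG1 209099_x_at stands at 0.53 with all arrays and 0.70 without that array, HES1 203395_s_at at 0.73 and 0.95, and LFNG 228762_at at 1.20 and 1.10.

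The promoter stretches of the 3 genes with a higher signal are shown because HES1 is the textbook target of the Notch complex through its promoter, and the same letters can be looked for in LFNG and JAG1. The 250 bases before each transcription start come from RefSeq (GRCh38.p14), which listed 9 starts for 8 of the 10 genes, among them 2 for LFNG. Capitals mark the RBPJ core motif TGGGAA or its reverse complement TTCCCA, searched on both strands. The HES1 stretch is chr3:194135898-194136147 on the plus strand, those of LFNG are chr7:2512279-2512528 and chr7:2517613-2517862 on the plus strand, and that of JAG1 is chr20:10674000-10674249 on the minus strand.
HES1: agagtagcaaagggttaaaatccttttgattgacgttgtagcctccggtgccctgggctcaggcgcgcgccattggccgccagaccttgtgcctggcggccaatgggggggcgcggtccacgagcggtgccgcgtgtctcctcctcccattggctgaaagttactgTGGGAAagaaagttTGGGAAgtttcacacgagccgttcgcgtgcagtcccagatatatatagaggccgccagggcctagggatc
LFNG, upstream start: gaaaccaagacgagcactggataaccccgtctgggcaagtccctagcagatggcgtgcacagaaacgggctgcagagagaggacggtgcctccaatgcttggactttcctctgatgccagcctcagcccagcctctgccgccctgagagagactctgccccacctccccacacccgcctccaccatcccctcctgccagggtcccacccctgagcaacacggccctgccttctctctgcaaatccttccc
LFNG, downstream start: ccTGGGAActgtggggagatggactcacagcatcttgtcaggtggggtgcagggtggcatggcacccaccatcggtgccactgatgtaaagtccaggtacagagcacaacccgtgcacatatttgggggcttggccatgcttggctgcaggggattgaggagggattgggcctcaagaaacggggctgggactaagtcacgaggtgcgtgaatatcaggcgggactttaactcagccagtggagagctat
JAG1: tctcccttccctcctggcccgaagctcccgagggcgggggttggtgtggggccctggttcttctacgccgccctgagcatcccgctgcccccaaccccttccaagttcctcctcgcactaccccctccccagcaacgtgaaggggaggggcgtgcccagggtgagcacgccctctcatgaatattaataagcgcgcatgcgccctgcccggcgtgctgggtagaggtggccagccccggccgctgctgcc
The HES1 stretch held 2 matches in the same orientation, beginning 84 and 70 bases before the start. The LFNG stretch at the downstream start held 1, beginning 248 bases before it, and the other LFNG stretch and the JAG1 stretch held 0. Of 35116 such stretches in the table, 20.8% held at least 1 match and 2.90% at least 2, so a single match is common. The longer form GTGGGAA was held at least 1 time by 5.43% and at least 2 times by 0.17%. Only the HES1 match at 84 bases has this longer form. The HES1 match at 70 bases and the LFNG match do not. The matches are a description of letters, and binding was not measured. Sites that differ from TGGGAA by any letter were not searched for, so the marked letters need not be the sites that RBPJ uses.

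Of 68 further genes of the pathway, 60 were measured, each by its brightest kept probe set, and 0 passed the test over 14174 genes (limma, Benjamini-Hochberg adjusted p under 0.05). Of all genes tested, 1.62% passed. The 60 split into 30 with positive and 30 with negative differences, with a median of 0.012 against 0.0093 over all genes. An unadjusted p under 0.05 was found for 6 of the 60 (10%), against 14.9% of all genes. The remaining 8 listed genes were not analysed here, since no probe set with their symbol alone passed the filter.

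Among 9 measured enzymes that modify the EGF-like repeats, 2 had an unadjusted p under 0.05, with opposite signs. EOGT, which attaches N-acetylglucosamine directly to these repeats, was 9.70, 9.85 and 9.93 with MYOSIN10 shRNA, against 9.23, 9.50 and 8.89 with scramble shRNA (0.62 ± 0.15 SE, limma adjusted p = 0.0674). The groups did not overlap, and scramble array 2 was the nearest to the MYOSIN10 shRNA arrays. POFUT1, which adds the O-linked fucose that fringes extend, was 9.68, 9.66 and 9.62 with MYOSIN10 shRNA, against 9.98, 9.87 and 10.05 with scramble shRNA (-0.32 ± 0.10 SE, limma adjusted p = 0.151), and its second probe set stood at -0.085.

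Of 5 other measured ligands and receptors, 2 had an unadjusted p under 0.05. DLK2, a non-canonical Delta-like protein, was 8.96, 8.81 and 9.05 with MYOSIN10 shRNA, against 8.32, 8.58 and 7.94 with scramble shRNA (0.66 ± 0.17 SE, limma adjusted p = 0.0796). DNER, another Delta-related membrane protein, stood at 0.37 ± 0.13 (SE, limma adjusted p = 0.214). Both groups of arrays were separate for these genes, as they were for EOGT and POFUT1, and none of the 4 passed. These 4 were named for their small p, and the groups did not overlap for 18.1% of all kept probe sets. Nothing is therefore read from their separation.

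The cleavage machinery gave 0 genes of 8 with an unadjusted p under 0.05. The sheddases ADAM10 and ADAM17 were at -0.048 ± 0.11 and -0.011 ± 0.088 (SE), with 95% intervals from -0.30 to 0.20 and from -0.20 to 0.18. The gamma-secretase subunits with the smallest p were PSEN2 at 0.31 ± 0.15 (SE, limma adjusted p = 0.354) and APH1B at 0.43 ± 0.21 (SE, limma adjusted p = 0.357). The second probe sets of ADAM17, at 0.24, and of APH1B, at -0.18, had the opposite sign to the first. Those of ADAM10, at -0.089, and of PSEN2, at 0.61, had the same sign as the first. In the trafficking list of 13, NUMBL, an endocytic adaptor related to the Notch antagonist NUMB, had an unadjusted p under 0.05. It was 10.22, 10.20 and 10.22 with MYOSIN10 shRNA, against 9.63, 9.94 and 9.73 with scramble shRNA (0.45 ± 0.11 SE, limma adjusted p = 0.0623), and its second probe set stood at 0.038. The ubiquitin ligase DTX3L stood at -0.19 ± 0.12 (SE, limma adjusted p = 0.523).

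Of 17 nuclear genes, 1 had an unadjusted p under 0.05. This was FBXW7, the ubiquitin ligase adaptor that marks the Notch intracellular domain for destruction, at 9.17, 9.49 and 9.25 with MYOSIN10 shRNA, against 9.61, 9.64 and 9.72 with scramble shRNA (-0.35 ± 0.12 SE, limma adjusted p = 0.175). The acetyltransferase CREBBP stood at 0.17 ± 0.094 (SE, limma adjusted p = 0.441). The DNA-binding partner RBPJ, named for its role and not by its p, was at -0.14 ± 0.081 (SE, limma adjusted p = 0.472). Of 8 other targets, 0 had an unadjusted p under 0.05. NRARP, a feedback inhibitor of the Notch complex, was 7.92, 8.51 and 7.69 with MYOSIN10 shRNA, against 7.84, 7.58 and 7.36 with scramble shRNA (0.45 ± 0.23 SE, limma adjusted p = 0.385), and the difference was 0.21 without MYOSIN10 shRNA array 2. HES4 stood at 0.29 ± 0.15 (SE, limma adjusted p = 0.408).

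Without scramble array 2, 4 of the 60 passed over all genes, where 6.8% of all genes did. They were DLK2, EOGT, NUMBL and the cyclin CCND1, the last chosen after its values were seen, and CCND1 stood at 0.15 ± 0.12 (SE) with all arrays. Without both arrays numbered 2, these 4 passed together with FBXW7 and POFUT1, 6 of the 60, where 8.64% of all genes did.

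**Figure D4:**
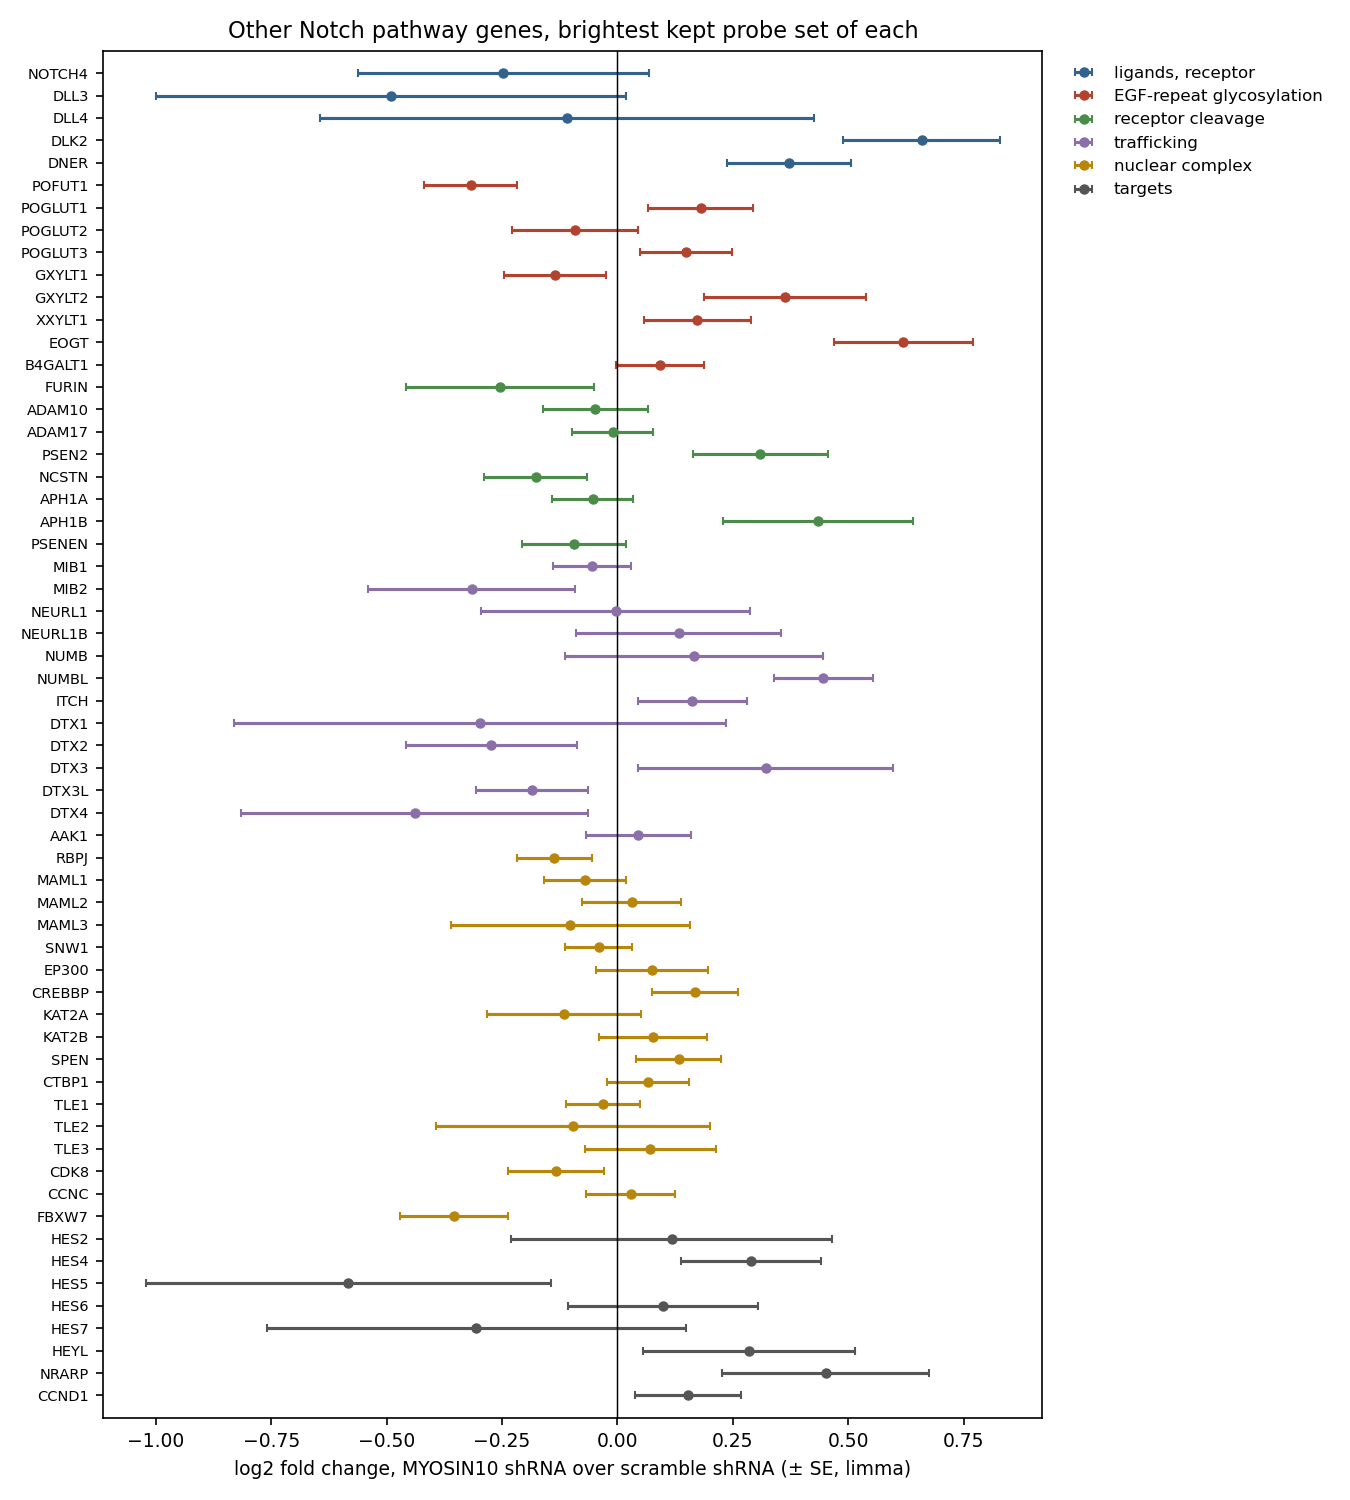
Log2 fold change (MYOSIN10 shRNA over scramble shRNA, ± SE from limma, horizontal axis) of 60 other Notch pathway genes, each by its brightest kept probe set and coloured by role. The values run from -0.58 (HES5) to 0.66 (DLK2), and 0 of the 60 passed the test over all genes.

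None of the 4 tested genes nearest to LFNG on chromosome 7 passed the test. Of the genes tested, EIF3B and CHST12 lie before it and BRAT1 and IQCE after it in RefSeq order, and they stood at 0.14, -0.18, -0.091 and -0.0043, with limma adjusted p-values from 0.371 to 0.993. The 5 genes whose levels followed LFNG 228762_at most closely over the 6 arrays, by Pearson correlation, were CCDC92 (r = 0.997), GLCCI1 (0.996), RNF220 (0.992), RAB3D (0.992) and MEF2C-AS1 (0.991). Their log2 fold changes were 0.81, 0.52, 0.18, 1.12 and 0.74. The 6 arrays fall into the same 2 groups that LFNG separates, and 352 of 14173 genes had an r above 0.9.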

How the data were processed

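The deposited values are log2 signals, which the authors made with MAS5 per the submitters' processing notes. The MAS5 version and scaling target are not stated in the labels. That the scale is log2 was read from the values: once turned back to linear signals, every array had a mean of 500.1 when 2% was trimmed at both ends. Values of 0, held by 0.754% to 1.01% of probe sets per array, are the lower end of the deposited scale. Because the arrays share that mean, a change in total RNA per cell would not be seen.

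Linear signals plus 16 were put on a log2 scale again, which damps noise and understates fold changes of dim probe sets. After 62 control probe sets were left out, the filter kept probe sets at or above the 40th percentile of the array on 3 or more of the 6 arrays. Symbols came from the platform annotation, updated by Entrez number through RefSeq (GRCh38.p14) for 41043 of 41097 probe sets with 1 symbol. The groups were compared by limma 3.58.1 under R 4.3.3 (lmFit and eBayes with a variance trend, no term but group, two-sided) over all kept probe sets, or over all genes by the brightest kept probe set, with Benjamini-Hochberg adjustment. The steps were tested on simulated data. The members, the pathway lists and the markers were chosen with earlier results of these data known. Named genes were MYO10, all 10 members, the called genes of each pathway list or else the 2 with the smallest p, the 2 nearest tested genes on each side of LFNG, the 5 most correlated with it and the markers; RBPJ, ADAM10, ADAM17, HES5 and CCND1 were added. Figures used Python 3.11.15 and matplotlib 3.10.9.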

Additional observations from a re-analysis of the deposited data

How the results depend on the processing

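The log2 fold change of LFNG 228762_at ran from 1.09 to 1.28 over 17 alternatives, and it was called in 15 of the 16 that kept the test over probe sets. The exception was eBayes without a variance trend, where 0 of 33311 probe sets passed (3661 had an unadjusted p under 0.05), and so 0 members. The number of probe sets called, 354, was 175 without a filter, 949 with array weights, 1658 without both arrays numbered 2 (added after the data were seen) and 59 to 1465 when 1 array was left out, the lowest without scramble array 1 and the highest without scramble array 2; it was 78 without scramble array 3, and 71 and 113 without arrays 1 and 3 of MYOSIN10 shRNA. By 1 probe set per gene, 229 genes were called. The number of member probe sets called, 1, was 4 with array weights, 7 without both arrays numbered 2 and 1 to 7 when 1 array was left out. The number of other pathway genes called, 0, was 3 with array weights (where 5.58% of all genes were called), 6 without both arrays numbered 2 and 0 to 4 when 1 array was left out. The labels do not say whether shared replicate numbers pair the samples. Deviations from the group means correlated at 0.033, 0.12 and 0.013 within numbers 1, 2 and 3, and at -0.075 to 0.049 across numbers. The value within number 2 was the highest of all pairs, while MYOSIN10 shRNA array 1 correlated best with scramble array 3 (0.045). Deviations within a group sum to 0, so these values cannot decide whether the samples are paired. With the replicate number as a block, 891 probe sets, 2 member probe sets (LFNG 228762_at and JAG1 209099_x_at) and 3 other pathway genes (DLK2, EOGT and NUMBL) were called, and 4.31% of all genes. Of 326 values of kept member probe sets under alternatives, 323 moved by less than 1 SD. That count is no measure of stability. A change of filter, variance trend or block leaves a log2 fold change as it was, and leaving out 1 array of 3 cannot move it by 1 SD between samples. JAG1 209099_x_at, at 0.53 ± 0.13 (SE) with all arrays and 0.70 without scramble array 2, is among the 323. The cause of the changes in the numbers called was not tested.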

Other observations

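1 more probe set, 227067_x_at, is assigned to NOTCH2 together with 4 NOTCH2NL copies, 5 symbols in all, and was left out of the 27. It was 10.28, 10.26 and 10.38 with MYOSIN10 shRNA, against 10.64, 10.27 and 10.58 with scramble shRNA, a log2 fold change of -0.19 ± 0.11 (SE). Scramble array 2 lay among the MYOSIN10 shRNA arrays, and the other scramble arrays were above them.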
